A study of Mus musculus with 8 samples.

Results

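Unstimulated peritoneal macrophages from mice labelled Zc3h12a-/- were compared with unstimulated wild-type macrophages, before any lipopolysaccharide (LPS) was added. The comparison used 2 of the 8 arrays of the series, those titled as 0 h, 1 of each genotype, and each value is the log2 reading of the labelled-knockout array minus that of the wild-type array. The other 6 arrays came from the same 2 genotypes after 1, 2 or 4 h with 100 ng/ml of LPS, a bacterial cell wall component. All mice had received thioglycollate, which irritates the peritoneum and recruits macrophages, so every group held elicited cells. RNA was taken with Trizol, copied into biotinylated cRNA by the NuGEN Ovation system and hybridised to Affymetrix arrays. The labels give no number of mice behind an array, and the sources used here give neither the strain background, nor the deleted part of the gene, nor whether animals were pooled. With 1 array for each genotype and time there was no replicate, so the 0 h differences are values without a test. Where a gene has a pair of readings, the wild-type array comes first and the labelled-knockout array second, both at 0 h on the log2 scale.

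Zc3h12a encodes Regnase-1, an endoribonuclease with a CCCH zinc finger that cuts stem-loops in the 3' ends of mRNAs and so shortens the life of transcripts such as Il6. LPS is sensed by TLR4, which induces cytokine mRNAs through NF-kB, and also leads to the breakdown of Regnase-1 protein. Peritoneal macrophages can take on different states. Resident cells carry their own set of markers, and cells exposed to interleukin-4 (IL-4) and STAT6 signalling switch on genes of alternative activation such as Retnla, Chil3 and Arg1.

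The 2 arrays of 0 h correlated at 0.987 over all probe sets, within the range of 0.933 to 0.988 over all pairs of the 8 arrays, which are not independent points. Background, the highest of 27 bacterial control probe sets on an array, was 3.06 in wild type and 2.96 in labelled knockout. A gene at or below it has only a bound there, given as "at least". As a sign of RNA quality, the 3' probe set of Actb exceeded its 5' probe set by 3.11 in the labelled-knockout array and by 2.64 in the wild-type array, and that of Gapdh by 3.31 and 3.01. Both gaps were the largest of the series on the labelled-knockout array of 0 h. On the other arrays they lay between 2.16 and 2.64 for Actb and between 2.90 and 3.16 for Gapdh. The part of RNA quality in the differences was not tested. The brighter Zc3h12a probe set read 6.12 (wild type) and 6.73 (labelled knockout) before LPS, and the other read 3.22 and 3.01, close to background. Neither was clearly lower in the array labelled knockout. The sources used here do not say where these probes lie relative to the deletion, so they neither bear out nor contradict the label, and the arrays are called labelled knockout throughout. Of 18 measured general macrophage markers all 18 lay above background on both arrays. Their median difference was -0.03, with 1 gene at least 2-fold higher and 2 lower. Csf1r, the receptor for the macrophage growth factor, read 13.29 and 13.33, and the lysosomal glycoprotein gene Cd68 12.90 and 12.95. The higher gene was Mrc1, and the lower ones were Aif1, a calcium-binding protein of macrophages, at 7.17 and 5.49, and the IgG receptor gene Fcgr1, at 8.71 and 7.55.

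Before LPS, 261 of 12540 genes (2.08%) read 2-fold or more higher in the labelled-knockout array and 213 (1.70%) lower, 474 in all (3.78%). The higher genes were led by Npy, Rnase2a, Lcn2, Ccn3 and Retnla, and the lower genes by Hal, Gdpd3, Ifi27l2a and Gdf3. Larger differences lay mostly on the higher side, with 70 genes at least 4-fold higher against 22 lower and 26 at least 8-fold higher against 6 lower. The brighter array was at least 1 log2 unit above background for 256 of the 261 and for all 213. The dimmer array was at background for 26 and 5 of them. Over all 12540 genes the median difference was -0.06 and the SD 0.48, with the 5th and 95th percentiles at -0.69 and 0.59. Each gene list is read against that median and those shares. Centring on 11 housekeeping genes moved the median of all genes to -0.20 and the counts to 203 higher and 348 lower, so the balance between higher and lower genes depended on the scaling. The genes nearest the 2-fold limit were Coq8a at 1.003 and Ifitm1 at 1.004 just inside and 4632427E13Rik at 0.999 and Serac1 at 0.998 just outside. On the lower side they were Rab13 and Fam149b, both at -1.005, inside and Tspyl3 at -0.996 and Prxl2b at -0.993 outside.

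**Figure D1:**
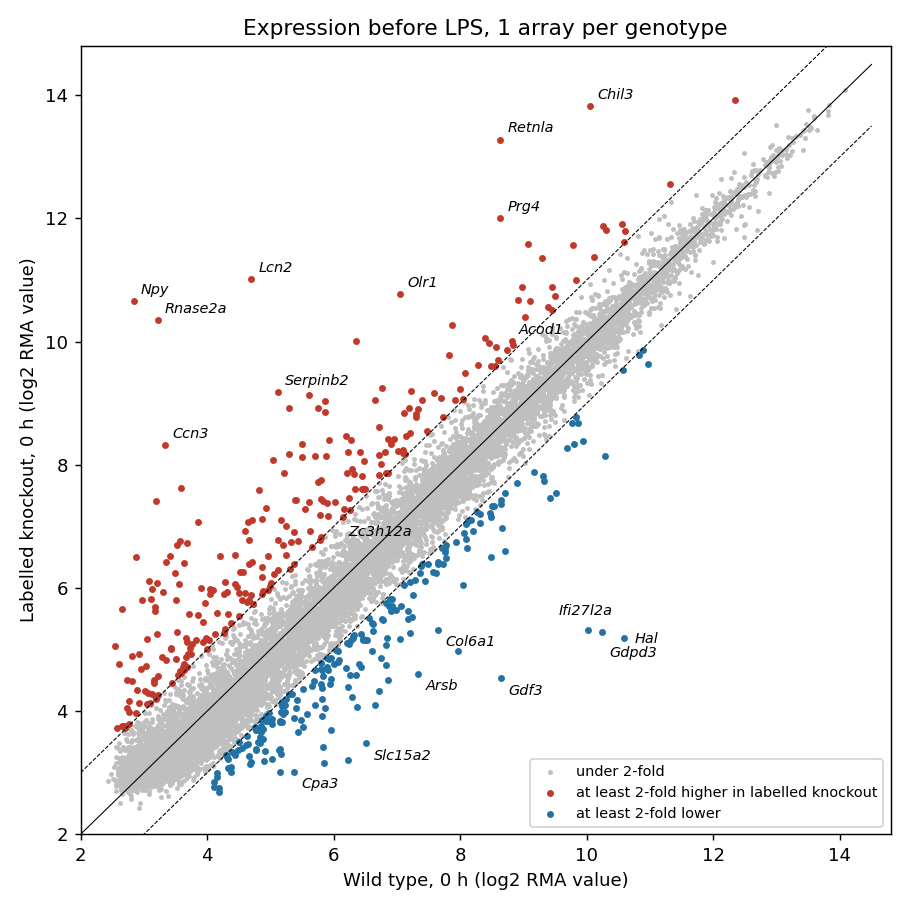
Each point is 1 of 12540 genes, with its log2 RMA value in the wild-type array at 0 h on the horizontal axis and in the labelled-knockout array at 0 h on the vertical axis. The solid line marks equal values and the dashed lines 2-fold. The 261 red points lie above the upper dashed line and the 213 blue points below the lower one, with Npy at 2.84 and 10.66 and Hal at 10.59 and 5.19 among the furthest out.

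The 5 widest gaps among higher genes, those of Npy, Rnase2a, Lcn2, Ccn3 and Retnla, were all in secreted products. Npy, a neuropeptide, read 2.84 in the wild-type array, below background, and 10.66 in the labelled-knockout array, at least 194-fold higher. Rnase2a, a secreted ribonuclease of the family named for eosinophils, read 3.22 and 10.34, a 140-fold difference. Ccn3, a matrix-associated growth regulator, read 3.34 and 8.32. For both Npy and Rnase2a the wild-type array thus lay near the floor of the measurement. Vmn2r26, a vomeronasal receptor gene, read 3.20 and 7.41. Apoc1, an apolipoprotein, read 5.61 and 9.13 and was the larger of the 2 members at least 2-fold higher among 24 genes of sterol synthesis and LXR targets. The other was Scd1, a fatty acid desaturase, with a difference of 1.40, and the median of that list was 0.03.

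Alternative activation markers read higher in the labelled-knockout array in 14 of the 20 genes past the filter. The list held 22 genes, of which 9 were 2-fold or more higher and 1 lower, with a median of 0.79. Retnla, a secreted resistin-like protein, read 8.63 (wild type) and 13.28 (labelled knockout), a difference of 4.65. Chil3, a chitinase-like protein, read 10.05 and 13.83. Ccl24, a chemokine that attracts eosinophils, read 3.58 and 7.62. All 3 were among the 15 genes with the largest positive differences. Arg1, the enzyme that splits arginine into ornithine and urea, read 9.08 and 11.59. Mgl2, a galactose-binding lectin, read 3.21 and 6.08, and Ccl17, a chemokine for T cells, 4.82 and 7.59. The mannose receptor gene Mrc1 was nearer the limit, at 8.59 and 9.71. Chil4, a close relative of Chil3, read 2.54 in wild type, below background, and 5.06, at least 3.99-fold higher. The 1 member at least 2-fold lower was Pparg, a lipid-sensing nuclear receptor, at 8.32 and 7.05.

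Promoters from the RefSeq table of build GRCm38.p6 were searched on both strands for TTC and GAA with any 4 bases between them, the spaced palindrome bound by STAT6 and other STAT factors, over the 250 bases before each start. It occurred in 23 of the 197 higher genes with a promoter (11.7%), 10 of 178 lower genes (5.62%), 586 of the 10136 tested genes with one (5.78%) and 1826 of all 27025 promoters (6.76%). Of the 16 alternative activation markers with a promoter, 4 held a match, and these were Ccl17, Clec7a, Pdcd1lg2 and Retnla. Of the 10 among the 15 highest genes that had one, Retnla and Lcn2 held a match. GGG, any 2 bases, TT, any 1 base and CC, a form of the NF-kB site, was found in 11 of the 197 (5.58%), 9 of the 178 (5.06%) and 560 of the 10136 (5.52%). A pair of GAAA with any 2 bases between them, a form of the interferon response element, was found in 6 of the 197 (3.05%), 10 of the 178 (5.62%) and 334 of the 10136 (3.30%). The motifs can share bases, and the STAT motif reads the same on both strands. No test was made of these shares, and a match is a run of letters and not a shown binding site. The 3 promoters printed here hold the STAT motif and belong to genes read higher before LPS, each 5' to 3' on the gene's strand with the match in capitals. Ccl17 was added after its values were seen. The stretches are chr16:48842359-48842608 on the plus strand for Retnla, chr2:32387740-32387989 on the minus strand for Lcn2 and chr8:94810203-94810452 on the plus strand for Ccl17. The matches run from -145 to -136, from -156 to -147 and from -154 to -145 relative to the gene's start.
Retnla: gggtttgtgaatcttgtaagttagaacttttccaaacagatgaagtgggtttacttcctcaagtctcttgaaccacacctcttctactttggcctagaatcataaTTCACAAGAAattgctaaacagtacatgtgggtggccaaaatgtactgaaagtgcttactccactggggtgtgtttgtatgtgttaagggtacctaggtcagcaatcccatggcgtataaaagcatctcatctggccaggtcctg
Lcn2: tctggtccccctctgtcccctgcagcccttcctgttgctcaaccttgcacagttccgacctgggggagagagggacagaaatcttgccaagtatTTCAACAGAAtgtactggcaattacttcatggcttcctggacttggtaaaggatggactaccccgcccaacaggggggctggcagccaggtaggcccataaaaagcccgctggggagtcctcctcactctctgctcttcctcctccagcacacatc
Ccl17: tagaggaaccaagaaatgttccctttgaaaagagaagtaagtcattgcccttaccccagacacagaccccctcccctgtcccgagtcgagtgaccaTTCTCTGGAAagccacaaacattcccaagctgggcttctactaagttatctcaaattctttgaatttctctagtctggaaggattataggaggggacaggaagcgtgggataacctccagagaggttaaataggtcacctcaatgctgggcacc

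Resident peritoneal macrophage markers had the highest median of the lists with at least 8 members past the filter. Of 20 listed genes 18 were measured and passed the filter, of which 13 were at least 2-fold higher and 0 lower, with a median of 1.60. Prg4, a lubricating proteoglycan, read 8.63 and 12.00. Selp, the adhesion receptor P-selectin, read 6.36 and 10.01, and Serpinb2, an inhibitor of plasminogen activators, 5.12 and 9.18. Tgfb2, a TGF-beta ligand, read 5.74 and 8.92, and Alox15, the 12/15-lipoxygenase, 5.30 and 8.18. Vsig4, a complement receptor, read 9.28 and 11.36, Cd5l, a secreted scavenger protein, 9.78 and 11.57, and Timd4, a receptor for apoptotic cells, 4.87 and 6.34. Gata6, the transcription factor that defines resident cells, was low on both arrays at 3.22 and 4.21. Its 2 other probe sets read 3.51 and 3.26, and 2.83 and 2.80, so its own difference was not borne out by them. The summed level of the list, as the mean over its 18 measured members, was 7.08 (wild type) and 8.83 (labelled knockout) at 0 h. Over all times, 0 h included, it was 7.08 to 7.47 in wild type and 8.65 to 9.01 in labelled knockout. In bulk RNA, fewer cells of a type and less RNA per cell cannot be told apart. Of the 13 measured small peritoneal macrophage and monocyte markers past the filter, 2 were higher and 2 lower, with a median of -0.03. The higher ones were Chil3 and Klf4, a transcription factor at 5.89 and 7.38. The lower ones were Itgax, at 10.57 and 9.55, and Spn, at 4.31 and 3.25. In all, 6 differences were positive and 7 negative.

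**Figure D2:**
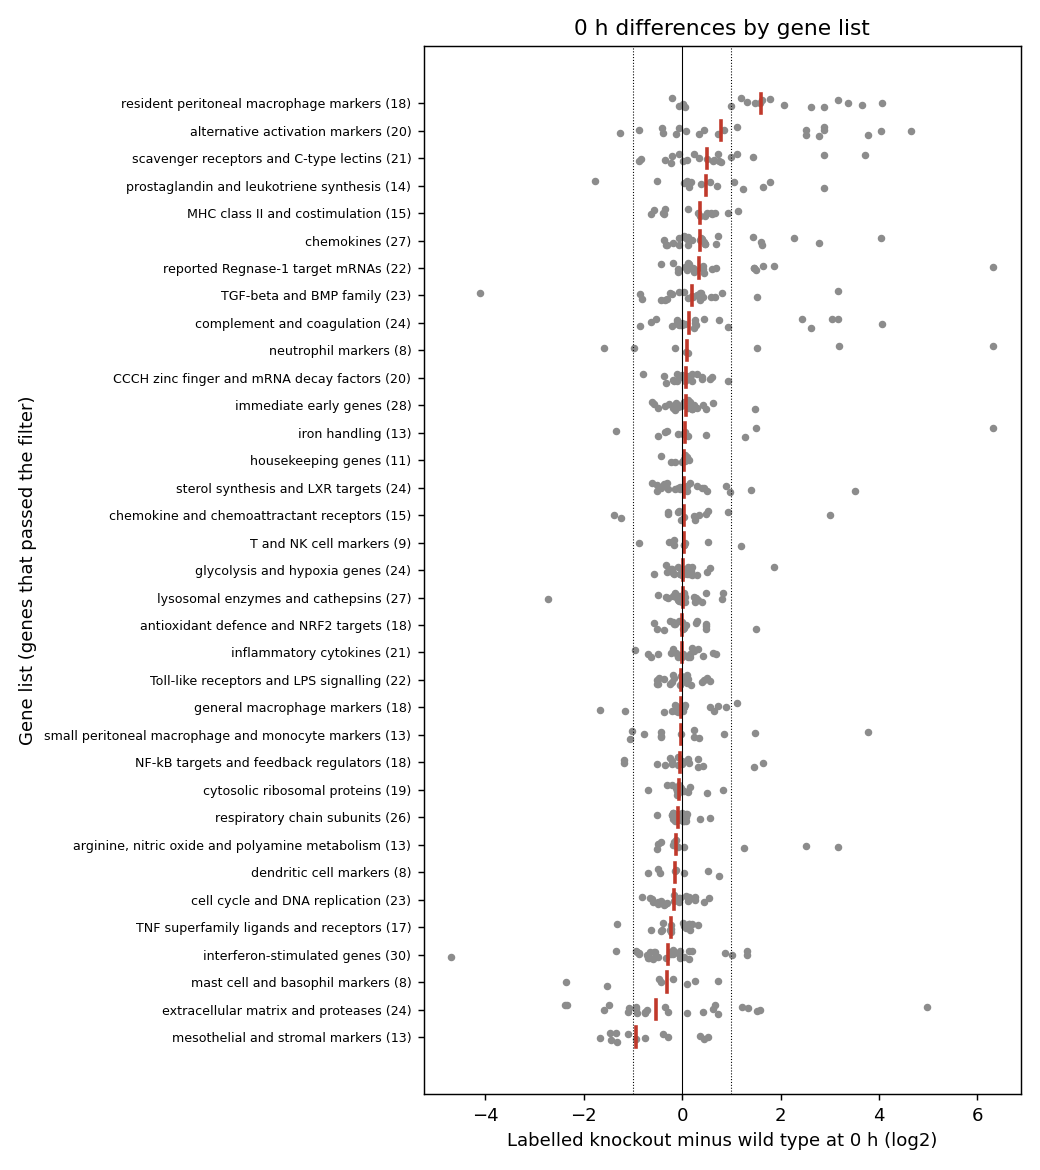
Each point is 1 gene, with its labelled-knockout minus wild-type difference at 0 h (log2) on the horizontal axis, for the 35 lists with at least 8 genes past the filter, whose number is in brackets. Red bars are medians and dotted lines 2-fold. Resident peritoneal macrophage markers have the highest median, 1.60, and mesothelial and stromal markers the lowest, -0.94.

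Lcn2, which encodes the iron-siderophore binding protein lipocalin-2, read 4.69 (wild type) and 11.02 (labelled knockout), an 80.1-fold difference. Lrg1, a leucine-rich plasma glycoprotein, read 2.87, below background, and 6.51, at least 10.9-fold higher. Orm1, an acute-phase plasma protein, read 5.86 and 8.86, and Pglyrp1, a peptidoglycan-binding protein, 4.60 and 6.93. Both were chosen after their values were seen. Of 15 neutrophil markers 13 were measured and 8 passed the filter, of which 3 were higher and 1 lower, with a median of 0.10. The higher ones were Lcn2, S100a9, a calcium-binding protein at 3.58 and 6.77, and Mmp8, a collagenase at 6.33 and 7.84. The lower one was Mmp9, a gelatinase, at 5.70 and 4.10. S100a8, whose product pairs with that of S100a9, read 10.39 and 10.47. Elane, Ltf, Cxcr2 and Cd177 were at background on both arrays, and Mpo was so in wild type and read 3.07 in labelled knockout. The summed level of the 13 measured markers, a mean that includes Lcn2 and S100a9, was 4.47 in wild type and 5.11 in labelled knockout. Its part in the result was not tested.

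Ighm, the IgM heavy chain, read 5.29 and 8.92 on its brightest probe set, but its 11 probe sets disagreed. Their differences ranged from -0.08 to 7.24, the latter on a probe set that read 2.95, below background, and 10.19. Those with differences near 0 lay below background on both arrays, except for a probe set at 3.78 and 3.72. The joining chain gene Jchain read 3.49 and 6.24. These were the 2 higher genes of 6 B cell and plasma cell markers past the filter, out of 18 listed and 13 measured, whose median was 0.09. Pax5, Cr2 and Fcer2a of that list were at background on both arrays. Mzb1 read 3.03 and 3.04, Ms4a1 3.37 and 3.41, and Cd79a 4.02 and 3.33. Summed over the 13, Ighm and Jchain included, the level was 3.46 and 3.81 at 0 h, and over all times 3.33 to 3.46 and 3.81 to 3.92. The part of B cells and plasma cells was not tested. Of 24 complement and coagulation genes past the filter 5 were at least 2-fold higher and 0 lower, with a median of 0.14. C2, a protease of the classical complement pathway, read 5.05 and 8.08, and Cfb, its counterpart in the alternative pathway, 5.71 and 8.14. Cd55, which protects cells from complement, read 3.52 and 6.69, and F5, coagulation factor V, 5.50 and 8.12. Serpinb2 was the remaining one, and it and F5 are also on the resident list.

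Genes that LPS induces were mixed before LPS. None of the 21 inflammatory cytokine genes past the filter was 2-fold apart at 0 h, and their median was -0.01. Il6, the best known Regnase-1 target, lay below background in wild type and read 3.42 in labelled knockout, at least 1.28-fold higher. Tnf read 5.70 and 5.48, Il1b 3.99 and 4.23, and Il10 3.11 and 3.26. Il12b was at background on both arrays. Nfkbia, an inhibitor of NF-kB and an early LPS target, read 10.86 and 10.98. Of 22 genes of Toll-like receptors and LPS signalling 0 were 2-fold apart, with a median of -0.02. Among 18 NF-kB targets and feedback regulators, Ptgs2 and Nfkbiz were at least 2-fold higher and Traf1 and Cd83 at least 2-fold lower, with a median of -0.04.

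Chemokine genes held 6 of 27 at least 2-fold higher and 0 lower, with a median of 0.36. Besides Ccl24 and Ccl17, Ccl5, which attracts T cells and monocytes, read 6.19 and 8.47, and Cxcl13, a B cell attractant, 10.26 and 11.88. Cxcl9, an interferon-induced chemokine, read 3.29 and 4.88, and Pf4, platelet factor 4, 9.44 and 10.89. Ackr3, a chemokine scavenging receptor, read 2.66, below background, and 5.66. The receptor gene Cxcr3 read 4.78 and 3.39. Of 30 interferon-stimulated genes, 22 had negative and 8 positive differences, with a median of -0.30, but only 2 were at least 2-fold lower and 3 higher. The lower ones were Ifi27l2a, at 10.02 and 5.32, and Oasl2, a relative of the 2'-5' oligoadenylate synthetases, at 7.06 and 5.71. The higher ones were the guanylate-binding protein genes Gbp2, at 7.20 and 8.51, and Gbp3, at 7.15 and 8.47, and Usp18, which removes ISG15 from proteins, at 4.96 and 5.96.

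Of 25 mRNAs reported as Regnase-1 targets 22 passed the filter, of which 6 were at least 2-fold higher and 0 lower, with 18 differences positive and a median of 0.33. Earlier work picked some of them on samples of this kind, so the direction of the list is not independent evidence. The list also holds Zc3h12a itself, whose difference of 0.61 is among the 18 positive ones. Lcn2 was the largest. Tfrc, the transferrin receptor, read 10.31 and 11.80, and Egln3, an oxygen-sensing prolyl hydroxylase, 4.10 and 5.97. Ptgs2, the inducible cyclooxygenase, read 4.27 and 5.90, but its other probe set read 2.97 and 3.02, close to background. Nfkbiz, an NF-kB cofactor, read 6.95 and 8.42, while its other probe sets read 4.64 and 4.80, and 2.98 and 3.29. Icos, a T cell costimulator, read 3.68 and 5.13.

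Of 13 genes of arginine metabolism past the filter 3 were at least 2-fold higher, with a median of -0.14. These were Arg1 and the arginine importers Slc7a2, at 5.87 and 9.03, and Slc7a1, at 10.11 and 11.37. Of 14 genes of prostaglandin and leukotriene synthesis 5 were higher and 1 lower, with 12 differences positive and 2 negative and a median of 0.47. Besides Alox15 and Ptgs2 they were Alox5, the enzyme that begins leukotriene synthesis, at 3.96 and 5.75, Pla2g7, at 9.50 and 10.74, and Ptges, at 4.38 and 5.43. A further probe set of Ptges read 4.055 and 4.046, so its difference was not borne out there. The lower one was the prostaglandin D synthase gene Hpgds, at 6.35 and 4.58. In iron handling Lcn2, Tfrc and the ferroxidase gene Cp were higher and the iron exporter gene Slc40a1, at 6.51 and 5.16, lower, of 13 genes with a median of 0.05. As the mean of each gene's probe sets, Cp differed by 0.62 and Slc40a1 by -0.60, so neither was 2-fold apart by that measure. On a further bright probe set, however, Cp read 5.32 and 6.79, a difference of 1.47. Slc7a11, the cystine importer, read 5.20 and 6.70 and was the 1 gene at least 2-fold apart of 18 in antioxidant defence. Olr1, the receptor for oxidised lipoprotein, read 7.05 and 10.76 and led the 4 higher genes of 21 scavenger receptors and C-type lectins, of which 15 had positive differences and whose median was 0.50.

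Other lists held 0 or 1 member 2-fold apart, beside 3.78% of all genes. In lists of this size such counts lie near that share, so they are not a result about these genes. Of 23 cell cycle genes, 26 respiratory chain subunits, 19 ribosomal proteins, 11 housekeeping genes and 20 CCCH zinc finger and mRNA decay factors, 0 were 2-fold apart in either direction. Their medians were -0.17, -0.10, -0.06, 0.03 and 0.07. Of 27 lysosomal genes only Arsb was, and of 24 glycolysis and hypoxia genes only Egln3. Of 15 genes of MHC class II and costimulation the costimulator Cd86 alone passed 2-fold, with a difference of 1.13, and the median was 0.37. Genes near Zc3h12a on its chromosome were read to see whether differences gathered there. Of the 10 nearest measured genes on each side 0 were 2-fold apart, and of the 50 on each side 1, C77080, which was lower. Over all genes the share was 3.78%. The wider stretch did not exceed that share, while the nearest genes were too few to tell.

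The genes that read lower in the labelled-knockout array were of several kinds. Hal, histidine ammonia-lyase, which starts histidine breakdown, read 10.59 (wild type) and 5.19 (labelled knockout), a 42.1-fold difference. Gdpd3, a lysophospholipase of the glycerophosphodiester phosphodiesterase family, read 10.24 and 5.28, a 31.1-fold difference. Ifi27l2a, an interferon-inducible mitochondrial protein gene, was 26.0-fold lower. All 3 read above 10 in wild type and stayed above background in labelled knockout. Gdf3, a TGF-beta family ligand, read 8.64 and 4.53. Slc15a2, a peptide transporter, read 6.52 and 3.47, and Cdkn1c, an inhibitor of cyclin-dependent kinases, 6.22 and 3.20. Arsb, a lysosomal sulfatase, read 7.34 and 4.61, and a further probe set 5.49 and 3.63. Ifi44l, an interferon-induced gene, read 5.85 and 3.15, and Pawr, a pro-apoptotic regulator, 5.83 and 3.42. Zmynd8, a chromatin reader, read 7.97 and 4.98 on its brightest probe set and 6.68 and 6.67 on the next, so its probe sets disagreed. Cep85, a centrosomal protein gene, read 6.85 and 4.51, but its difference was -0.78 as the mean of its probe sets. Speg, a muscle kinase gene, read 6.66 and 4.09, but differed by -0.34 with _x_at, _s_at and _a_at probe sets left out, which can match several transcripts.

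Matrix and stromal genes were among the lower ones. Of 20 mesothelial and stromal markers 19 were measured and 13 passed the filter. Of these, 6 were at least 2-fold lower and 0 higher, with a median of -0.94. In all, 10 differences were negative and 3 positive. The positive ones were Fn1, at 11.45 and 11.90, Thy1, at 2.96, below background, and 3.47, and Lum, below background on both arrays. The type I collagen genes Col1a1 and Col1a2 read 9.79 and 8.34, and 8.11 and 6.64. Sparc, a collagen-binding glycoprotein, read 6.84 and 5.18, and the growth factor receptor gene Pdgfra 6.98 and 5.65. Bgn, a small proteoglycan, read 6.07 and 4.97, and the transcription factor gene Wt1 4.11 and 2.76, below background. The mesothelial genes Msln, Krt19, Krt18 and Lrrn4 were at background on both arrays. Summed over the 19 measured markers, the level was 4.94 and 4.41 at 0 h. Over all times, 0 h included, it was 4.94 to 5.08 in wild type and 4.28 to 4.55 in labelled knockout. Its part in the lower matrix genes was not tested. Of 24 extracellular matrix and protease genes 6 were lower and 5 higher, with a median of -0.53, which turned to 0.09 with the filter at the 75th percentile. The type VI collagen genes Col6a1, at 7.65 and 5.31, and Col6a2, at 6.71 and 4.32, and Col5a2, at 6.20 and 4.70, were lower. Ccn3, the collagenase gene Mmp13, at 6.47 and 8.06, and Thbs1, thrombospondin, at 8.27 and 9.62, were higher. The mast cell protease genes Cpa3, at 5.38 and 3.02, and Cma1, at 4.68 and 3.14, were the 2 lower genes of 8 mast cell and basophil markers past the filter, out of 12 listed and 11 measured. Mcpt4 and Fcer1a of that list were at background on both arrays, and the summed level over the 11, Cpa3 and Cma1 included, was 3.55 and 3.16. Its part was not tested.

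Markers of other cell types differed in single members. Of 13 eosinophil markers 7 were measured and 2 passed the filter, and Ccr3, Il5ra, Epx, Prg2 and Prg3 were at background on both arrays. The summed level over the 7, a mean that includes Rnase2a with its difference of 7.13, was 3.25 and 4.31. It is therefore not a reading apart from Rnase2a, and its part was not tested. Rnase2a was the 1 member at least 2-fold higher, while Siglecf, the eosinophil lectin that some macrophages also carry, read 5.41 and 5.49. Of 9 T and NK cell markers past the filter only Cd3e, a subunit of the T cell receptor complex, was 2-fold apart, at 4.70 and 5.89. Of 8 dendritic cell markers 0 were. Pf4 was the 1 higher gene of 3 erythroid and platelet markers past the filter.

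Where a gene had a further bright probe set, it mostly pointed the same way. Counting those whose brighter 0 h array was 1 log2 unit above background, such a probe set existed for 63 of the 261 higher genes, of which 55 had the same sign and 38 were also at least 2-fold higher, with a median of 1.24. Among the lower genes it existed for 52 of 213, of which 50 had the same sign and 24 were at least 2-fold lower, with a median of 0.98 in that direction. Ccn3 was one such gene, at 3.19 and 8.19 on its further probe set. A probe set could enter these counts through the array where the gene was brighter, and dim ones were left out. The share with the same sign over all genes was not counted, so the counts are not independent support. As the mean of a gene's probe sets, the 0 h differences of Sparc (-0.97), Ptgs2 (0.84), Nfkbiz (0.65), Traf1 (-0.52), Zmynd8 (-0.58), Cd86 (0.88), Slc7a1 (0.71), Scd1 (0.74) and Fcgr1 (-0.98) were under 2-fold. That of Mrc1 was so after housekeeping centring (0.97), and that of Cd86 too (0.99).

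The 6 arrays taken after LPS, which the 0 h difference does not use, were then examined for the same genes. Their cells may come from the same mice or cultures, which the labels do not say, so a p-value there measures the spread between these arrays. In a limma fit of those 6 arrays that kept time as a block, 597 genes of 12540 (4.76%) had an adjusted p under 0.05 between genotypes, with 254 higher (2.03%) and 343 lower (2.74%). Of the 261 genes higher at 0 h, 136 (52.1%) passed in the same direction, and of the 213 lower at 0 h, 114 (53.5%) did. None passed in the opposite direction. Leaving out either 4 h array lowered these to 70 and 36, and without the time block they were 33 and 14. Of the 30 genes furthest apart at 0 h, 28 passed in the same direction, the exceptions being Lcn2 and Speg. The 28 became 23 without either 4 h array and 17 without the time block.

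Npy lay below background in wild type at every time and was higher in labelled knockout by at least 7.68 on the log2 scale after LPS. Rnase2a was at background in wild type at 1 and 2 h and differed by 6.89 with those readings raised to background. Retnla was higher by 4.80 (SE 0.09, adjusted p = 0.00013), Chil3 by 3.90 (SE 0.10, adjusted p = 0.000299) and Ccl24 by 4.17 (SE 0.12, adjusted p = 0.000465). For these 3 genes the differences at 1, 2 and 4 h lay within 0.364 of the 0 h value. Hal differed by -5.52 (SE 0.15, adjusted p = 0.000333), with its labelled-knockout reading at background at 4 h, and Gdpd3 by -5.27 (SE 0.09, adjusted p = 0.00013). Arg1, at 2.79 (SE 0.12), Prg4, at 3.26 (SE 0.13), and Orm1, at 3.31 (SE 0.14), passed too. Of the resident peritoneal macrophage markers 12 of 18 passed higher and 0 lower, of the alternative activation markers 9 of 20 higher and 2 lower, and of the mesothelial and stromal markers 0 higher and 8 of 13 lower. The medians of these lists at 1, 2 and 4 h were 1.64, 1.503 and 1.59 for resident markers, 0.80, 0.65 and 0.71 for alternative activation, and -0.95, -1.03 and -0.86 for stromal markers.

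**Figure D3:**
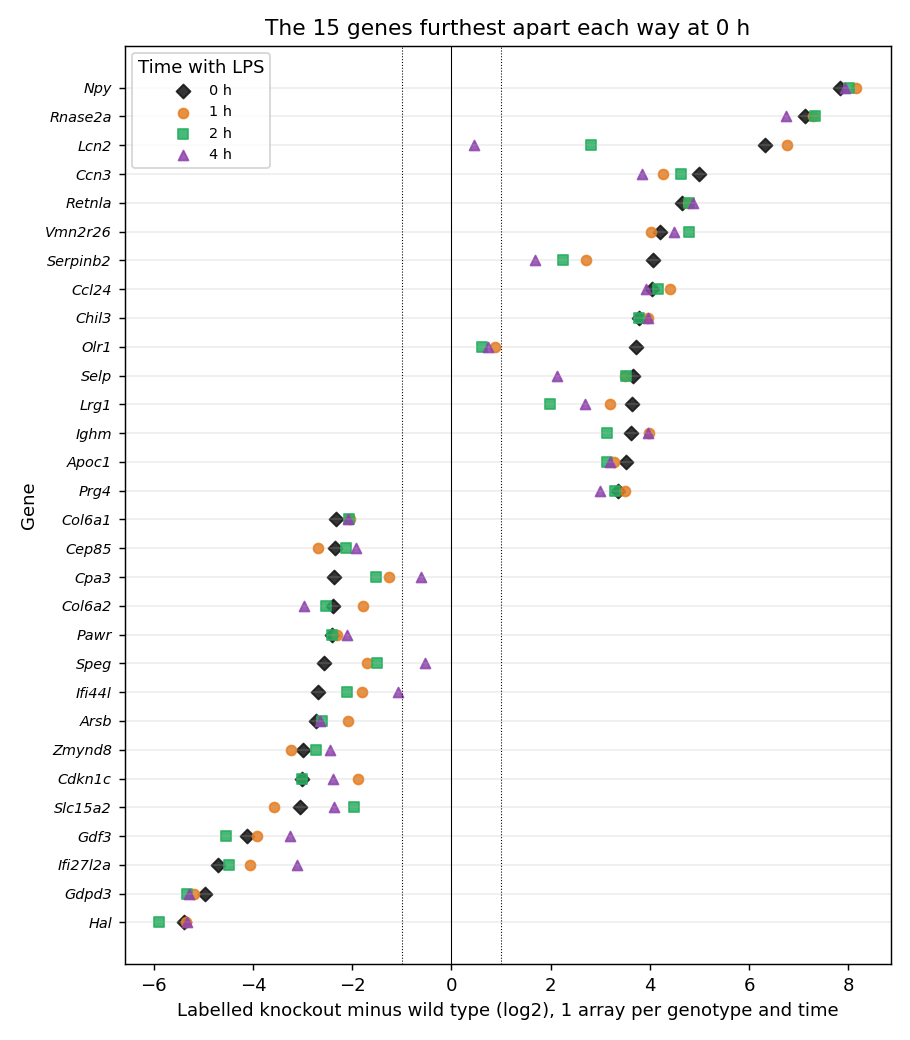
Labelled-knockout minus wild-type differences (log2) are drawn for the 15 genes furthest apart each way at 0 h, with 1 symbol for each time with LPS and dotted lines at 2-fold. Symbols of Npy, Retnla, Chil3 and Gdpd3 lie close together, while Lcn2 goes from 6.32 at 0 h to 0.45 at 4 h and Olr1 from 3.71 to 0.74.

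The genes apart at 0 h were closer at 4 h, by their medians. The 261 higher genes had a median of 1.49 at 0 h and of 1.41, 1.10 and 0.78 at 1, 2 and 4 h. The 213 lower genes had medians of -1.27, -0.998, -1.02 and -0.87. The genes were chosen on their 0 h values, so a smaller later median is partly built into the choice. At 1, 2 and 4 h, 186 (71.3%), 141 (54.0%) and 116 (44.4%) of the higher genes were again at least 2-fold higher, beside 2.02%, 1.97% and 1.67% of all genes. Of the lower genes 106 (49.8%), 109 (51.2%) and 91 (42.7%) were again lower, beside 1.35%, 2.84% and 2.20%. At all 3 later times 93 and 57 were 2-fold apart in the same direction, and 219 and 181 kept their sign. Differences within 0.5 of 0 at all 3 were found for 11 and 24. The shares of all genes that do so were not counted, so these counts over all 3 times stand without a base.

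**Figure D4:**
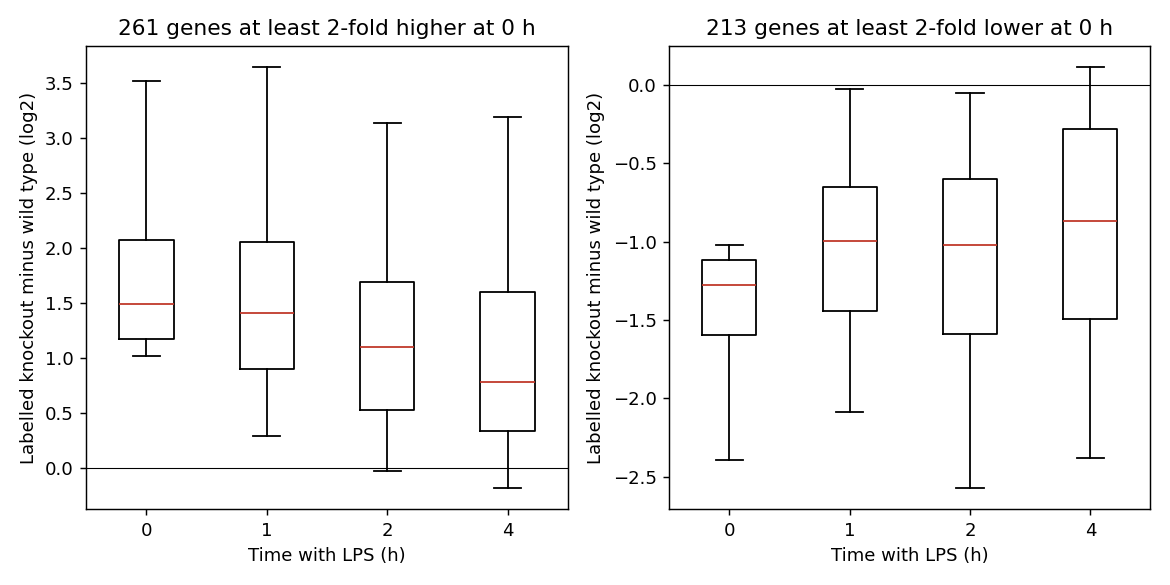
Boxes give the median and quartiles, and whiskers the 5th to 95th percentile, of the labelled-knockout minus wild-type difference (log2) at 0, 1, 2 and 4 h for the 261 genes higher (left) and the 213 genes lower (right) at 0 h. The median on the left goes from 1.49 to 0.78 and on the right from -1.27 to -0.87.

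Several LPS-induced genes were 2-fold or more apart at 0 h and under 2-fold apart at 4 h, some of them already at 1 h. Lcn2 read 4.69, 4.07, 8.10 and 10.82 in wild type at 0, 1, 2 and 4 h, and 11.02, 10.84, 10.91 and 11.27 in labelled knockout, so that its difference was 6.77 at 1 h and 2.80 at 2 h. The labelled-knockout array thus stood at 0 h close to where the wild-type array stood at 4 h. Ccl5 read 6.19, 11.05, 13.02 and 13.67 in wild type and 8.47, 11.86, 13.25 and 13.67 in labelled knockout. Acod1, which makes itaconate, read 8.81 and 10.01 at 0 h and between 13.04 and 13.32 on all 6 later arrays. Nfkbiz differed by 1.47 at 0 h and by 0.16, 0.26 and -0.02 later, and Ptgs2 by 1.64 and then 0.24, 0.40 and -0.08. Srgn, the proteoglycan serglycin, read 11.31 and 12.56 at 0 h and differed by 0.46, 0.29 and 0.16 later. Slc7a2 differed by 3.16, 3.21, 1.69 and 0.91 at 0, 1, 2 and 4 h and Cfb by 2.43, 3.09, 1.58 and 0.38. Among lower genes the receptor gene Ccrl2, which rose from 8.47 to 12.25 at 1 h in wild type, went from -1.25 to differences between -0.17 and 0.04. Cxcr3 went from -1.39 to differences between -0.30 and 0.13 but was not induced. Its wild-type reading fell from 4.78 at 0 h to 3.46 at 4 h, and its labelled-knockout readings lay between 3.38 and 3.62.

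**Figure D5:**
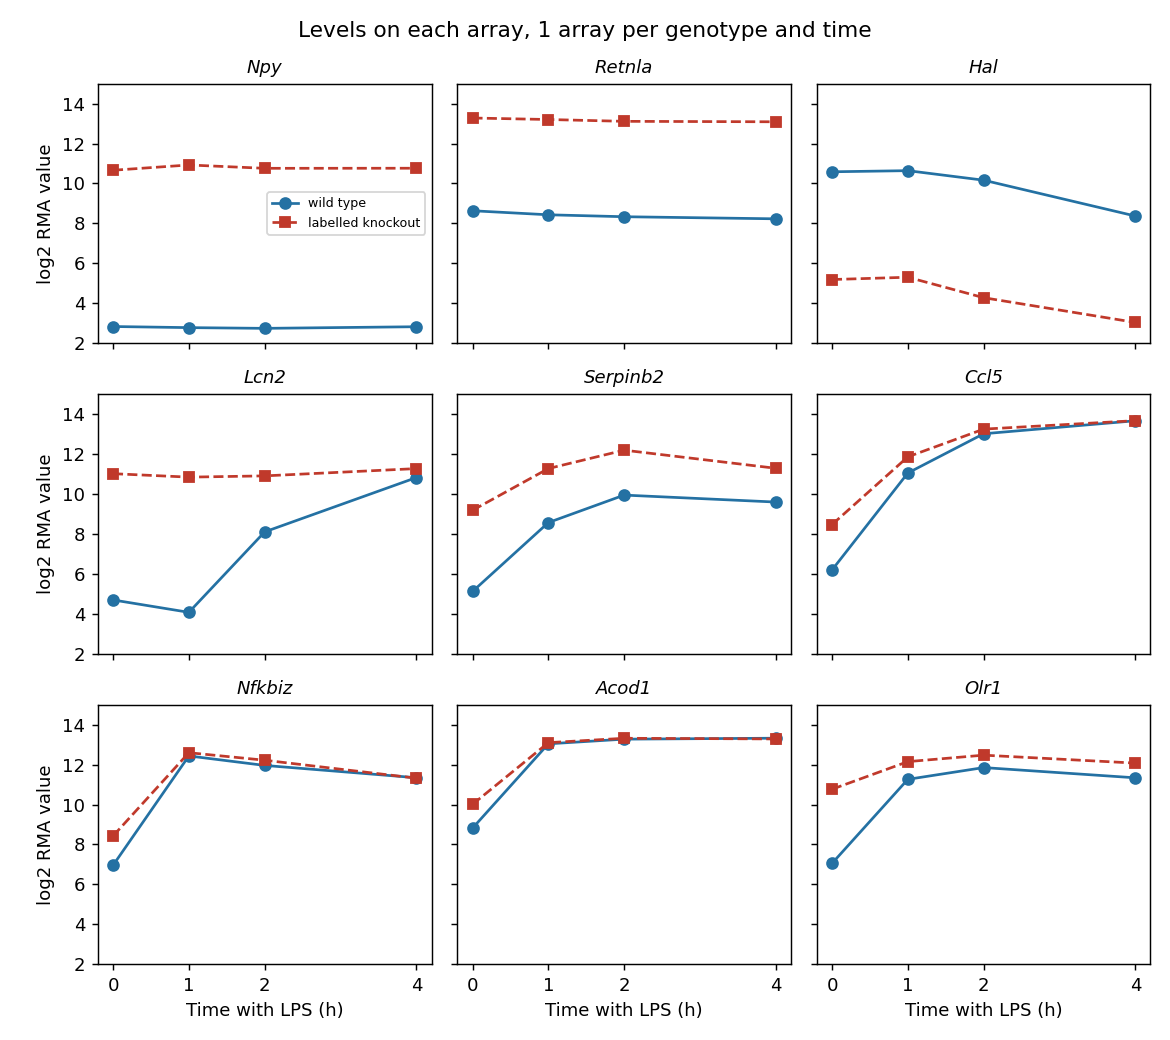
Each panel gives 1 gene's log2 RMA value on each array against time with LPS (h), with wild type in blue and labelled knockout in red and 1 array per point. The lines stay apart for Npy, Retnla and Hal and are closer at 4 h than at 0 h for Lcn2, Ccl5, Nfkbiz and Acod1.

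Whether the 0 h difference departed from the mean later difference was tested with limma over all genes and all 8 arrays. With 1 array per genotype at 0 h, the spread in this test came from the later arrays alone. 0 genes passed (0%), while 434 had an unadjusted p below 0.05, against 627 expected by chance, and 121 genes had an estimate of 2-fold or more. The smallest adjusted p was 0.278, for Olr1. With trend and robust settings 15 genes passed, and without either 1 h array 6 did, so the count of 0 rests on those settings. The fit left 2 residual degrees of freedom, and any change among 1, 2 and 4 h counted as error. No gene is therefore called particular to the time before LPS.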

How the data were processed

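The authors deposited log2 values of 45101 probe sets for 8 arrays, made with RMA per the submitters' processing notes, which give no version. RMA corrects background, makes the arrays' distributions alike and summarises probes, so a change in total mRNA would not be seen. Of the value columns 0 were left unused. Symbols came from the platform annotation (34945 probe sets with 1 symbol, 932 with several, 9224 unnamed or control), and 34741 Entrez identifiers matched RefSeq (GRCm38.p6), changing 0 symbols. For each of 18193 genes the probe set with the highest mean over the 8 arrays was used, and 12540 had a second-highest array of at least 3.16, the median of all values. At 0 h "called" means at least 2-fold, with no test. Later arrays were fitted with limma 3.58.1 in R 4.3.3 (lmFit, eBayes), and Benjamini-Hochberg adjustment ran over all genes.

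On simulated data for 12540 genes the fit after LPS recovered 93 of 100 genes changed by 1 log2 unit and 100 of 100 changed by 2, with 8.10% of calls false. The test of a departure recovered 12 and 95, with 7.76% false.

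Named genes were Zc3h12a, the 15 furthest apart each way at 0 h with the brighter array 1 unit above background, the 4 members furthest apart in each list, those near 0 later, of opposite sign later or of smallest departure p, those nearest 2-fold, and Il6, Il12b, Tnf, Il1b, Il10, Nfkbia and Calcr, which was at background on both 0 h arrays. Orm1, Pglyrp1, S100a8 and other genes outside this rule, mostly further list members past 2-fold, were chosen after their values were seen. Members and lists were chosen with earlier results of these data known. Alternatives were cyclic loess, housekeeping centring, other filters, other probe sets, other fold limits, other eBayes settings, no time block and leaving out arrays. The number of arrays limits the precision.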

Additional observations from a re-analysis of the deposited data

Results flagged for a closer look

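Among genes at least 2-fold apart at 0 h, 2 had the opposite sign at all 3 later times. E030024N20Rik read 4.72 (wild type) and 5.74 (labelled knockout) at 0 h, a difference of 1.02, and then differed by -1.47, -1.39 and -0.44 at 1, 2 and 4 h. Tspyl4 read 4.75 and 3.73 at 0 h, a difference of -1.02, and then differed by 0.28, 0.03 and 0.29. As the mean of its probe sets the 0 h difference of Tspyl4 was -0.46. Both were picked for this pattern. In the limma test of a departure over all genes neither passed, with an adjusted p of 1.00 for each.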

How the results depend on the processing

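The count of genes at least 2-fold higher at 0 h was 164 with the mean over a gene's probe sets, 629 at a 1.5-fold minimum and 70 at 4-fold, and stayed within 1.5 times 261 otherwise. That of lower genes was 348 after housekeeping centring, 131 with the mean of probe sets, 917 at 1.5-fold and 22 at 4-fold. The stromal median was -0.66 with the mean of probe sets, -0.68 with _x_at, _s_at and _a_at probe sets left out, which can match several transcripts, -0.30 with no filter and -1.22 with the filter at the 75th percentile. The alternative activation median was 2.51 with those probe sets left out and 1.12 with the filter at the 75th percentile. With them left out the 0 h difference of Coq8a went from 1.00 to -0.72, and the cause was not tested. Over the probe set, scaling and filter choices the 0 h median of 22 of 38 lists changed sign, but not that of resident, stromal or alternative activation markers. Among named genes 2-fold apart, 76 of 95 stayed so with the mean of probe sets and 90 of 95 after housekeeping centring.

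After LPS, 1642 genes passed with trend and robust settings, and 52 when the time block was dropped. Leaving out an array gave 119 (either 4 h array) to 754 (either 1 h array), with 261 without either 2 h array. For genes higher at 0 h the count was 33 without the block and 70 to 136 without an array, and for lower genes 14 and 36 to 112. Departures passed for 15 genes with trend and robust settings and for 0 to 6 without an array. The time block pairs the genotypes within a time. No paired analysis was possible by replicate number, because the labels carry none. Leaving out a 0 h array leaves no 0 h difference.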

Other observations

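Some genes on no list were also far apart before LPS, and all were chosen after their values were seen. Gbp8, a guanylate-binding protein gene, read 3.41 (wild type) and 6.51 (labelled knockout), and after LPS it differed by 2.00 (SE 0.27, limma adjusted p = 0.0248), with 1 wild-type reading at background. Slc10a6, a transporter of sulphated steroids, read 2.97, below background, and 5.81. Scgb1a1, the secretoglobin best known from airway club cells, was abundant on both arrays at 10.29 and 8.14. Its later difference was -1.97 (SE 0.09, adjusted p = 0.00185). P2rx7, the ATP-gated channel that triggers inflammasome activation, read 9.43 and 7.46 and differed by -2.06 (SE 0.19, adjusted p = 0.011) after LPS. A further probe set of P2rx7 read 7.25 and 6.40 at 0 h, a difference of -0.85.

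Further genes chosen in the same way read lower. Acta2, smooth muscle actin, read 7.20 and 5.26, Igfbp7, a secreted binding protein of insulin-like growth factors, 8.49 and 6.50, and Htra1, a secreted serine protease, 8.71 and 6.60. Axl, a receptor for apoptotic cells, read 5.86 and 4.05. After LPS these 4 differed by -2.37 (SE 0.18), -1.84 (SE 0.13), -2.27 (SE 0.15) and -1.75 (SE 0.17), and all 4 passed by limma.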
